A study of Mus musculus with 4 samples.

Results

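The Src and Tec family tyrosine kinases were described in dendritic cells (DCs) of mouse spleen. A probe set was taken when the platform annotation gave it 1 gene symbol and that symbol was Lyn, Fgr, Src, Fyn, Lck, Blk, Yes1, Btk or Tec. Of these 9 listed genes 7 were found, on 13 of 45037 probe sets that were not controls, and these genes were 7 of the 18193 named by a single symbol. Lyn and Lck had no probe set named by their symbol alone in the annotation used here, and they were not analysed here. The study measured CD8α+ DCs (2 arrays) and CD8α− DCs (2 arrays), both from the spleen of C57BL/6 mice, on Affymetrix Mouse Genome 430 2.0 arrays. The labels name no treatment, transgene, age or sex and do not say how the cells were sorted. Nor do they say that replicates were separate animals or pools, so p-values reflect the spread among these 4 samples alone and that spread may be technical.

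Src family kinases sit at the inner face of the cell membrane and phosphorylate the immunoreceptor tyrosine-based activation motifs (ITAMs) of Fc receptors, antigen receptors and several C-type lectins. The kinase Syk then docks on those motifs, and Tec family kinases such as Btk pass the signal to phospholipase C gamma. In myeloid cells the Src kinases are also known for phosphorylating inhibitory receptors, which recruit the phosphatases that end the signal. In DCs these routes are known to govern the uptake of immune complexes, adhesion and cytokine output.

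Fgr and Blk were lower in CD8α+ DCs, and Src, Fyn, Yes1, Btk and Tec were not called. The call used here is an unadjusted limma p under 0.05, because no probe set of the table passed after adjustment. Of the 13 kinase probe sets, 9 were bright enough to be tested, and these covered all 7 genes. At the unadjusted threshold 0 of the 9 were higher in CD8α+ DCs and 3 were lower, namely both probe sets of Fgr and that of Blk. Across everything tested, 7.75% of probe sets were called higher and 7.79% lower, 15.5% in all. With Benjamini-Hochberg adjustment over 22519 probe sets, limma called 0 (0%), with 3500 at the unadjusted threshold and a lowest adjusted p of 0.115. The groups did not overlap on 4 of the 9 kinase probe sets, against 52.3% of all tested probe sets, so the kinases did not stand apart more often than other genes. The median difference of the 9 was -0.41, against 0.01 over all tested probe sets, but Fgr and Fyn each entered it with both probe sets. With the brightest tested probe set standing for each of the 7 genes, the median was 0.03, against -0.02 over all tested genes. By gene, 3 differences were below 0 and 4 were above, so the kinases showed no common shift.

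Signals below are deposited MAS5 signals after quantile normalization, unless they are called deposited. Differences are log2 signal in CD8α+ DCs minus CD8α− DCs, ± the standard error of the limma fit, with n = 2 arrays per group. Background is the highest signal among the Bacillus control probe sets of an array, which was 30.8 and 21.8 on CD8α+ replicates 1 and 2 and 28.3 and 34.5 on CD8α− replicates 1 and 2. Signals of different probe sets cannot be set against each other. The arrays hold RNA of whole populations, so fewer cells that express a gene and less RNA per cell cannot be told apart.

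The CD8α+ pair agreed more closely than the CD8α− pair, with 8.47% and 32.2% of tested probe sets over 2-fold apart within the pair. CD8α− replicate 2 had the lowest median deposited signal, 17.4, against 22.9 to 35.1 on the other arrays. Its ratio of the 3′ to the 5′ control probe set of Gapdh was 10.7, against 1.53 to 2.02 on the other arrays, while its ratio for Actb was the lowest, 0.759, against 1.62 to 1.69. All 6 markers of conventional DCs were above background on every array. The summed signal of 8 measured cDC1 markers, the lineage of CD8α+ DCs, was 9387 and 9379 in CD8α+ DCs, against 2114 and 1321 in CD8α− DCs. Of the 8, 7 were called higher in CD8α+ DCs at an unadjusted limma p under 0.05. Cd8a, which names the groups, is among the 7 and was bright enough to be tested only through the CD8α+ arrays, so it had to differ. It gave 2014 and 2335 of the sums in CD8α+ DCs, against 15.2 and 27.0 in CD8α− DCs. Batf3 was not called, at 113.6 and 138.8 in CD8α+ DCs against 144.9 and 157.7 in CD8α− DCs. The sum of 8 cDC2 markers, which mark the main CD8α− lineage, was 1362 and 1498 in CD8α+ DCs, against 7099 and 4825 in CD8α− DCs.

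**Figure D1:**
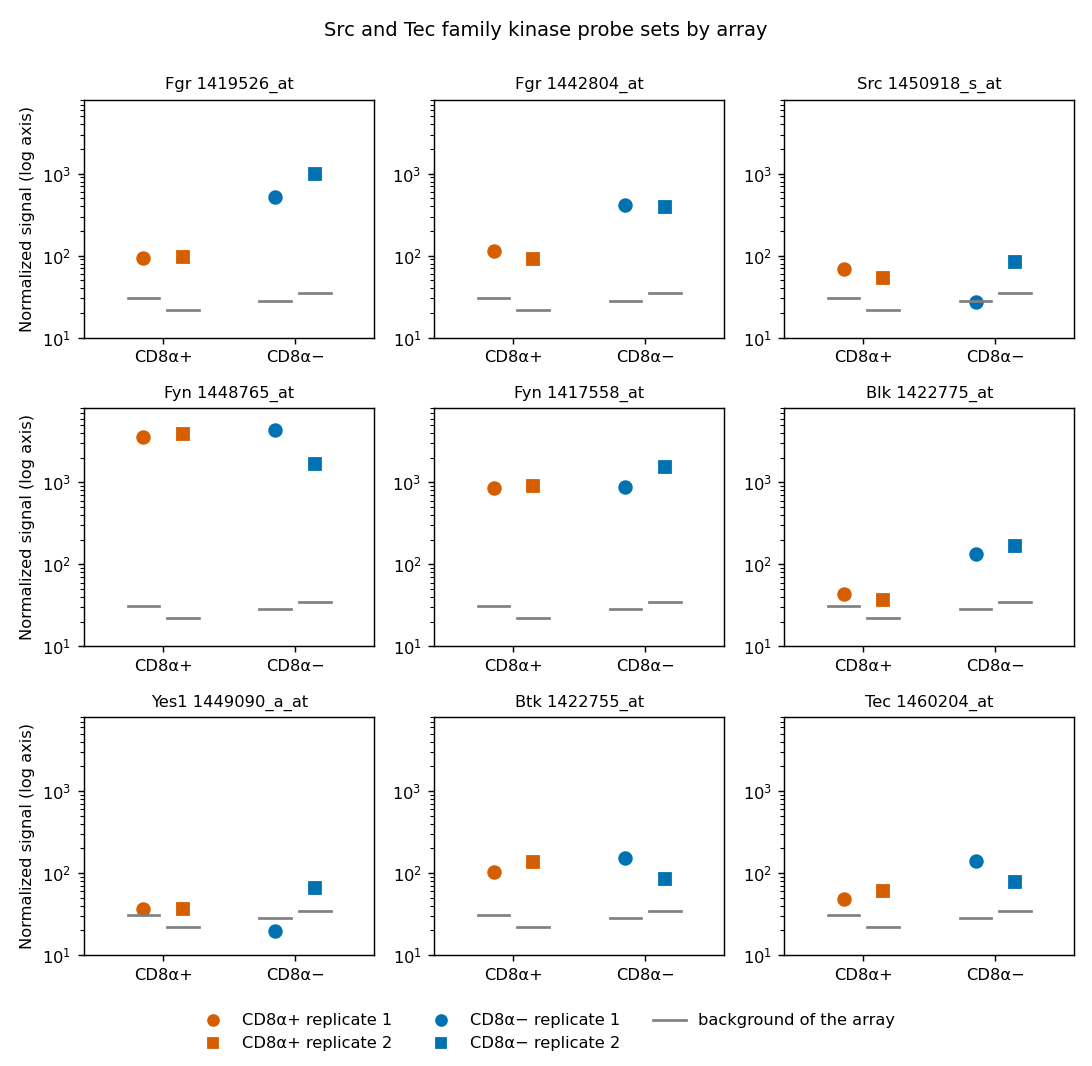
Normalized signal (vertical log axis) of the 9 tested kinase probe sets on each array, with CD8α+ DCs left of CD8α− DCs, and grey lines for the background of each array. Both Fgr probe sets and Blk were lower on both CD8α+ arrays, while Src and Yes1 lay near background and split the CD8α− arrays.

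Fgr is a Src family kinase known mainly from neutrophils, monocytes and macrophages, where it acts below Fc receptors and integrins. On probe set 1419526_at the deposited signals of Fgr were 118.2 and 127.0 in CD8α+ DCs, against 550.7 and 489.7 in CD8α− DCs. After normalization Fgr stood at 93.8 and 96.8 in CD8α+ DCs, against 520.2 and 1001 in CD8α− DCs. Both CD8α+ arrays were therefore low and both CD8α− arrays high, with no overlap. The difference was -2.92 ± 0.44, a 7.57-fold lower signal in CD8α+ DCs (limma unadjusted p = 0.00173, adjusted p = 0.131), and its 95% interval ran from -4.09 to -1.76. By p this probe set ranked 296 of 22519.

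The second Fgr probe set, 1442804_at, gave the same direction with a smaller size. Its normalized signals were 113.5 and 92.0 in CD8α+ DCs, against 420.4 and 395.1 in CD8α− DCs. The groups did not overlap here either, and the difference was -2.00 ± 0.32, or 3.99-fold (limma unadjusted p = 0.00231, adjusted p = 0.137). Fgr remained above background on all 4 arrays, at 3.05 and 4.43 times background in CD8α+ DCs against 18.4 and 29.0 times in CD8α− DCs on 1419526_at. Its RNA was thus detected in the CD8α+ samples and not only in the CD8α− samples. Which cells of the samples carried it was not tested.

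The Fgr difference kept its direction under each of 14 alternatives on both probe sets. On 1419526_at it ranged from -3.39 to -2.08 and had an unadjusted p under 0.05 in all 14. On 1442804_at it had such a p in 13, the exception being the deposited scale (-1.12, limma unadjusted p = 0.127). On that scale the median of all tested probe sets was itself 0.63 higher in CD8α+ DCs. Without CD8α− replicate 1 the adjusted p of 1419526_at was 0.0432, in a fit that called 2887 probe sets. That fit takes the spread from the close CD8α+ pair alone.

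Summed marker signals of other cells that carry Fgr were also lower in CD8α+ DCs. The summed signal of 9 measured monocyte and neutrophil markers of 10 listed was 8897 and 9595 in CD8α+ DCs, against 17380 and 15398 in CD8α− DCs. Each of the 9 exceeded background on at least 1 array, and most of the sum came from S100a8, S100a9 and Lyz2. Of the 9, 3 were called lower and 6 were not called, S100a9 (-0.52 ± 0.37) and Lyz2 (-0.84 ± 0.34) among the latter. Csf3r alone had a difference above 0 (0.13 ± 0.97). Of 9 measured macrophage markers, C1qc and Marco were not above background on any array, and the sum was 611.4 and 730.4 in CD8α+ DCs, against 951.7 and 1387 in CD8α− DCs. Of the 4 tested macrophage markers, 3 were called lower and Vcam1 was called higher in CD8α+ DCs. Among the 3, C1qb was not above background in CD8α+ DCs, at 16.3 and 11.9, against 97.9 and 149.0 in CD8α− DCs. C1qb was bright enough to be tested only through the CD8α− arrays, so it had to differ. Vcam1 read 323.8 and 383.8 in CD8α+ DCs, against 38.8 and 102.7 in CD8α− DCs (2.48 ± 0.56, limma unadjusted p = 0.00909). The part of these cells in the Fgr difference was not tested.

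Promoter windows of Fgr, Fyn and Btk are shown because Fgr differed on both probe sets, Fyn had overlapping groups on both, and Btk is a kinase whose promoter is known as a target of the myeloid factor PU.1. The windows are RefSeq sequences of GRCm38.p6, from 250 bases before to 50 after the start, so base 251 is the start. Capitals mark TTCCTC, which is the motif GAGGAA read on the reverse strand, a purine-rich run of the kind that PU.1 and related ETS factors are known to bind. The Fgr window lies at chr4:132973845-132974144 on the plus strand, the Fyn window at chr10:39369549-39369848 on the plus strand and the Btk window at chrX:134583091-134583390 on the minus strand.
Fgr: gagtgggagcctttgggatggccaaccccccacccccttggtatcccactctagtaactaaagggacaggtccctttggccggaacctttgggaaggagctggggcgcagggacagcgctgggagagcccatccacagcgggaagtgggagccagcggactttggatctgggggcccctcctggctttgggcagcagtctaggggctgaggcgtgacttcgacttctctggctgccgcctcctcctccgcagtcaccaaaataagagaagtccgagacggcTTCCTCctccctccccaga
Fyn: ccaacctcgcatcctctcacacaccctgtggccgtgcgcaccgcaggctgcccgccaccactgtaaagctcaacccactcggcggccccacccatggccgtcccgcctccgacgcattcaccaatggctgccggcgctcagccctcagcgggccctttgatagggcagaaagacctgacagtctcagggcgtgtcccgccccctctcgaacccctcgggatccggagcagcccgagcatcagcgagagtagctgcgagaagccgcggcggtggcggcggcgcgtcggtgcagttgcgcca
Btk: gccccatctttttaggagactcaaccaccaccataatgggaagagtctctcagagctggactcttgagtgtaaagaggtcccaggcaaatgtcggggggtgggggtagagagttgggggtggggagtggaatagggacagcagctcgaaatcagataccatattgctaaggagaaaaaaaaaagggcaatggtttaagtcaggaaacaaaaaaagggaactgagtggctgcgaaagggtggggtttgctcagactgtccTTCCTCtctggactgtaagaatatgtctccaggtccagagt
Both strands were searched for GAGGAA, and 28.3% of the 32851 windows in the table hold it. Of the 6 kinase genes with a window, it was found in 3. The match began at base 282 of the Fgr window and base 260 of the Btk window, both just past the start, and at base 143 of the Src window. No match was found in the windows of Fyn, Yes1 and Tec, which says only that these letters are not in those windows. CG dinucleotides numbered 11 in the Fgr window, 31 in the Fyn window and 3 in the Btk window, against a median of 7 over all windows. Blk had no entry. A match is a description of the sequence and not evidence of binding in these cells.

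Blk is the Src family kinase of B cells, where it acts below the B cell receptor, and it is also known from plasmacytoid DCs. On its one probe set, 1422775_at, the deposited signals were 48.8 and 36.3 in CD8α+ DCs, against 144.9 and 82.0 in CD8α− DCs. The normalized signals were 43.5 and 36.4 in CD8α+ DCs, against 133.9 and 165.6 in CD8α− DCs. The groups did not overlap, and Blk was low on both CD8α+ arrays, at 1.41 and 1.67 times background there against 4.73 and 4.80 times in CD8α− DCs. The difference was -1.90 ± 0.33, or 3.74-fold lower in CD8α+ DCs (limma unadjusted p = 0.00319, adjusted p = 0.144), with a 95% interval from -2.78 to -1.02.

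The direction of Blk held under each of 14 alternatives, with differences from -2.18 to -1.37. Its unadjusted p stayed under 0.05 in 12 of them. The exceptions were the deposited scale (-1.37, limma unadjusted p = 0.0540) and leaving out CD8α+ replicate 2 (-1.77, limma unadjusted p = 0.0524).

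The B cell list was mixed. The sum of 9 measured B cell markers of 10 listed was 306.3 and 320.4 in CD8α+ DCs, against 320.0 and 302.7 in CD8α− DCs. Of these, Pax5, Fcer2a and Vpreb3 were not above background on any array, and Ms4a1, which encodes CD20, was higher in CD8α+ DCs (1.45 ± 0.31, limma unadjusted p = 0.00673). Cd22 and Cd79b, which encode B cell receptor partners, had lower signals on both CD8α+ arrays without being called (-1.12 ± 0.52 and -1.02 ± 0.47). The sum of 9 plasmacytoid DC markers was 1102 and 1258 in CD8α+ DCs, against 1807 and 2603 in CD8α− DCs. Siglech, the defining surface marker of plasmacytoid DCs, read 24.5 and 49.1 in CD8α+ DCs and 28.8 and 16.8 in CD8α− DCs. Tcf4 gave 649.7 and 762.1 of the sums in CD8α+ DCs and 1198 and 1808 of those in CD8α− DCs. Of the 8 tested plasmacytoid genes, 4 had a difference below 0 and 4 above. The 2 called lower in CD8α+ DCs were the transcription factors Tcf4 (-1.06 ± 0.37) and Spib (-2.05 ± 0.46), which other cells also express. Ccr9, which was not called, had the largest difference of the list (2.21 ± 1.12). It read 103.7 and 95.8 in CD8α+ DCs, against 66.1 and 4.04 in CD8α− DCs. The part of these cells in the Blk difference was not tested.

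Fyn is a broadly expressed Src family kinase, known in T cells below the antigen receptor and in myeloid cells below Fc receptors and integrins. Its probe sets disagreed. On 1448765_at the normalized signals were 3557 and 3886 in CD8α+ DCs, against 4311 and 1687 in CD8α− DCs. CD8α− replicate 1 was the highest of the arrays and CD8α− replicate 2 the lowest, so the groups overlapped, and the difference was 0.46 ± 0.55 (95% interval -0.99 to 1.92, limma unadjusted p = 0.439).

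On 1417558_at the order of the CD8α− arrays turned. The signals there were 857.4 and 902.3 in CD8α+ DCs, against 879.3 and 1558 in CD8α− DCs, and the difference was -0.41 ± 0.41 (95% interval -1.50 to 0.68, limma unadjusted p = 0.366). CD8α− replicate 1 lay between the CD8α+ arrays on this probe set, within the spread of that pair. CD8α− replicate 2 is the array with the highest Gapdh and the lowest Actb 3′ to 5′ ratio given above, and whether RNA quality bears on the disagreement was not tested. Averaging both probe sets gave 0.03 (limma unadjusted p = 0.939). Fyn was at least 27.8 times background on every CD8α+ array and probe set and at least 31.1 times on every CD8α− array and probe set.

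Tec is the founding member of the Tec family, whose kinases act below Src kinases and mostly carry a lipid-binding domain. Its probe set 1460204_at read 48.8 and 61.1 in CD8α+ DCs, against 141.9 and 77.4 in CD8α− DCs. Both CD8α+ arrays were lower than both CD8α− arrays, but the CD8α− arrays were further from each other than the CD8α+ arrays were. The difference of -0.94 ± 0.43 was not called (95% interval -2.10 to 0.22, limma unadjusted p = 0.0893, adjusted p = 0.382). It was called without CD8α− replicate 2 (-1.38, limma unadjusted p = 0.0155) and on a common trimmed mean (-1.18, limma unadjusted p = 0.0335), where the median probe set stood at -0.21. The fit without CD8α− replicate 2 takes its spread from the CD8α+ pair, assumes that the lone CD8α− array varies alike, and called 28.3% of all probe sets. The sign was negative under all 14 alternatives.

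Btk is the Tec family kinase of B cells and myeloid cells whose loss causes an antibody deficiency in humans. Its probe set 1422755_at read 103.6 and 137.2 in CD8α+ DCs, against 150.7 and 85.4 in CD8α− DCs. The CD8α+ arrays lay between the CD8α− arrays. The difference was 0.07 ± 0.43 (95% interval -1.07 to 1.22, limma unadjusted p = 0.874), an interval that leaves room for a change of over 2-fold either way. Btk was above background on all 4 arrays, at 2.47 to 6.28 times.

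Src, the kinase that names the family, is known for its part in adhesion and cell spreading. Its probe set 1450918_s_at read 67.9 and 53.5 in CD8α+ DCs, against 27.3 and 83.4 in CD8α− DCs. CD8α− replicate 1 was the lowest array and did not exceed background, while CD8α− replicate 2 was the highest, so no fold is given. The difference was 0.34 ± 0.63 (95% interval -1.34 to 2.01, limma unadjusted p = 0.617). Probe sets with this kind of name can also match transcripts of related genes. The second Src probe set, 1423240_at, was too dim to be tested, at 2.68 and 23.6 in CD8α+ DCs against 2.61 and 30.2 in CD8α− DCs.

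Yes1 is a widely expressed kinase closely related to Src. Its brightest probe set, 1449090_a_at, read 35.9 and 36.7 in CD8α+ DCs, against 19.5 and 65.0 in CD8α− DCs. As for Src, CD8α− replicate 1 was below background and lowest, and CD8α− replicate 2 was highest. The difference was 0.03 ± 0.65 (95% interval -1.72 to 1.77, limma unadjusted p = 0.970). Its other 3 probe sets were too dim to be tested, with 1 of their 12 signals, 23.8 in CD8α+ replicate 2, above background. For Src and Yes1 the pair of CD8α− arrays disagreed by 1.61 and 1.74 log2 units, more than either group difference.

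**Figure D2:**
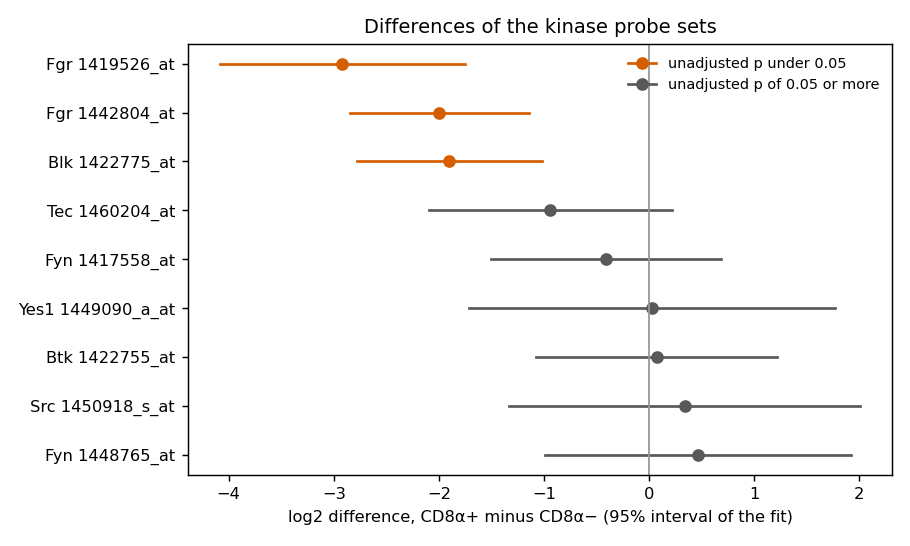
Differences of the 9 tested kinase probe sets on the log2 scale (horizontal axis, CD8α+ minus CD8α−), as points with the 95% interval of the limma fit, in order of size. Intervals of both Fgr probe sets and of Blk lie below 0, and the other 6 cross 0.

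Leaving out a CD8α− array turned several of the uncalled kinases. Without CD8α− replicate 1 the difference of Src was -0.47, that of Yes1 -0.84 and that of Fyn on 1448765_at 1.14. On 1417558_at, the other probe set of Fyn, it was -0.82 in that fit, the opposite direction. Without CD8α− replicate 2 the difference of Fyn on 1448765_at was -0.21. Those of Src and Yes1 were then above 0 but set against a single CD8α− signal that was not above background. For Btk the difference was 0.48 when CD8α− replicate 1 was left out and -0.34 when CD8α− replicate 2 was. The sign of these 4 genes, for Fyn on 1448765_at, therefore depended on which CD8α− array was kept. Without CD8α− replicate 1, 6 of the 9 kinase probe sets were called, 1 higher and 5 lower, beside 43.2% of all probe sets. Without CD8α− replicate 2 it was also 6, with 2 higher and 4 lower, beside 28.3% of all probe sets.

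**Figure D3:**
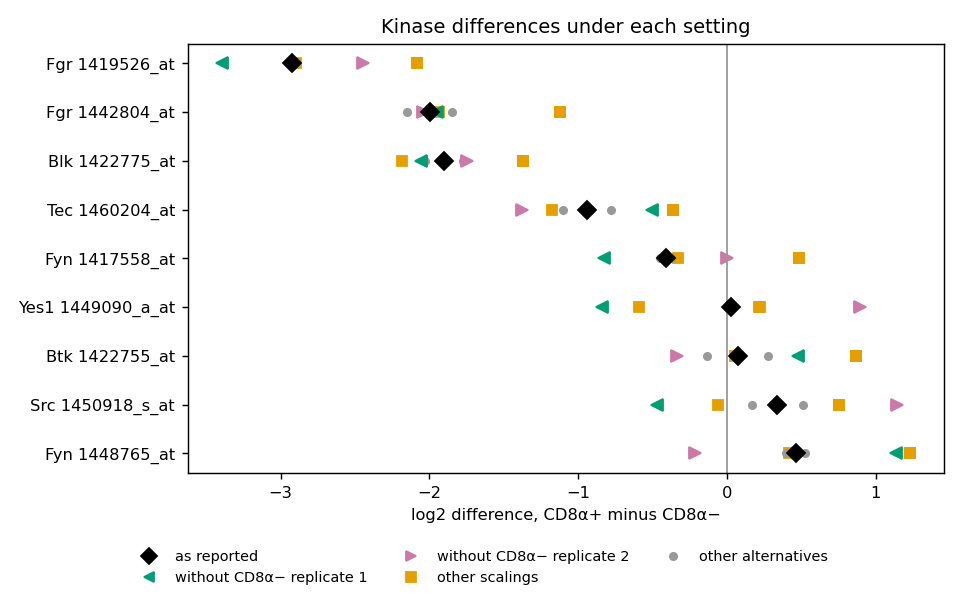
Difference of each tested kinase probe set (horizontal axis, log2, CD8α+ minus CD8α−) as reported and under each alternative. Fgr, Blk and Tec stay below 0 throughout, while Src, Yes1, Btk and Fyn on 1448765_at change side with the CD8α− array that is left out, and Fyn on 1417558_at is above 0 on the deposited scale and with median centring (both 0.48) and at 0 to 2 decimals without CD8α− replicate 2.

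The genes that act with these kinases were described in 4 lists. Of 61 tested genes, 1 was called higher and 21 lower in CD8α+ DCs at the unadjusted threshold, beside 7.13% and 8.82% of all 10532 tested genes. Of the 21, 5 had a mean signal in CD8α+ DCs under the filter on dim signals (Frk, Txk, Gab1, Dok2 and Sla2), so they were tested only through the CD8α− arrays and had to differ. Among the 55 genes whose mean reached the filter in both groups, 1 was called higher and 16 lower. The split of all 61 genes moved with the scaling, as did that of all probe sets. Median centring gave 10 genes higher and 10 lower, while 6018 of all 22519 probe sets were called higher and 855 lower. The deposited scale gave 4 genes higher and 8 lower, while 2310 of all 22526 probe sets were called higher and 454 lower. The median probe set stood at 0.65 and 0.63 in these fits. Fits with 1 array left out rest on a single array in 1 group, so their list counts are not given. Over all tested genes the groups did not overlap for 53.9%. Several members also stand in the cell type lists, among them Csf1r, Sirpa, Flt3, Cd22 and Cd79b.

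Of the receptors and ITAM adaptors upstream of the kinases, 19 of 25 listed genes were tested, and 9 were called lower in CD8α+ DCs, 0 higher and 10 neither, with a median difference of -1.12 against -0.02 over all tested genes. Fcer1g, the signalling chain of Fc receptors that Src kinases phosphorylate, read 326.8 and 387.8 in CD8α+ DCs, against 2348 and 3120 in CD8α− DCs. The receptor of macrophage colony-stimulating factor, Csf1r, read 213.5 and 213.2 in CD8α+ DCs, against 1305 and 1886 in CD8α− DCs. Clec4e, a lectin that signals through Fcer1g, read 152.8 and 149.0 in CD8α+ DCs, against 755.1 and 1195 in CD8α− DCs. In each of these 3 the groups were far apart. Their differences were -2.93 ± 0.34, -2.88 ± 0.35 and -2.65 ± 0.38 (limma adjusted p = 0.115 for the first and second and 0.125 for the third). The integrin chain Itgb2 (-0.45 ± 0.30) and the receptor Kit (-0.02 ± 0.33) were not called. The 4 genes with a difference above 0, none of them called, were Flt3 (1.08 ± 0.47), Csf2rb (0.73 ± 0.32), Cd3e (0.44 ± 0.61) and Cd247 (0.16 ± 0.31).

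Effectors below the kinases gave 1 gene called higher and 7 called lower of 22 tested and 26 listed, with a median difference of -0.39. The adaptor Lcp2 (SLP-76), a substrate of Syk, read 116.2 and 115.1 in CD8α+ DCs, against 483.9 and 836.2 in CD8α− DCs, a difference of -2.46 ± 0.40. Fyb (ADAP), an adaptor that Fyn phosphorylates and that binds Lcp2, read 577.3 and 612.9 in CD8α+ DCs, against 1824 and 2691 in CD8α− DCs, a difference of -1.90 ± 0.36. The docking protein Gab1 was not above background in CD8α+ DCs, at 9.53 and 10.7, against 58.8 and 35.3 in CD8α− DCs, at least 1.76-fold lower, and it was tested only through the CD8α− arrays. Vav3, a guanine nucleotide exchange factor, was the gene called higher, at 681.0 and 706.1 in CD8α+ DCs, against 269.7 and 159.0 in CD8α− DCs, a difference of 1.74 ± 0.40. Syk itself was not called (-0.38 ± 0.75), with 345.4 and 373.4 in CD8α+ DCs between the 949.3 and 230.5 of CD8α− DCs. Plcg2, the phospholipase that Btk activates, was not called either (-0.49 ± 0.45).

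Genes that hold Src kinases in check or end their signal showed 3 called lower and 0 higher of 18 tested and 19 listed, with a median difference of 0.15. Ptpn6, the phosphatase SHP-1 that inhibitory receptors recruit, read 305.2 and 304.7 in CD8α+ DCs, against 607.4 and 929.4 in CD8α− DCs, a difference of -1.30 ± 0.37. Sla2, a Src-like adaptor, read 3.80 and 27.7 in CD8α+ DCs, against 69.6 and 95.8 in CD8α− DCs. One CD8α+ array exceeded background for Sla2 and the other did not, so no fold is given. The adaptor Dok2 was not above background in CD8α+ DCs, at 22.7 and 19.0, against 53.5 and 38.3 in CD8α− DCs, at least 1.74-fold lower. Sla2 and Dok2 were tested only through the CD8α− arrays, which leaves Ptpn6 as the 1 called gene among the 16 that reached the filter in both groups. The kinase Csk, which switches Src kinases off through their tail, was not called (-0.49 ± 0.34), nor was the phosphatase CD45 (Ptprc, -0.11 ± 0.31), which reverses that step.

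Among 6 other kinases of these and related families, 4 had a probe set of a single symbol and 2 were tested. Frk, a Src-related kinase, read 14.8 and 21.0 in CD8α+ DCs, against 66.1 and 69.8 in CD8α− DCs, at least 2.62-fold lower. Txk, a Tec family kinase known from T and NK cells, read 14.2 and 10.5 in CD8α+ DCs, against 71.7 and 43.3 in CD8α− DCs, at least 2.15-fold lower. Both genes passed the filter on dim signals only through the CD8α− arrays, so they had to differ. The sum of 9 measured NK cell markers was 829.0 and 970.4 in CD8α+ DCs, against 2814 and 1714 in CD8α− DCs. Of these 9, 4 were called lower and 5 were not called, and Klrk1 (0.50 ± 0.32) and Prf1 (0.14 ± 0.49) had differences above 0. Gzma, which was not called, gave 1555 of the sum on CD8α− replicate 1 and 274.3 on CD8α− replicate 2. The sum of 9 T cell markers was 591.8 and 808.0 in CD8α+ DCs, against 627.5 and 661.1 in CD8α− DCs. The part of NK cells in the Txk difference was not tested.

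**Figure D4:**
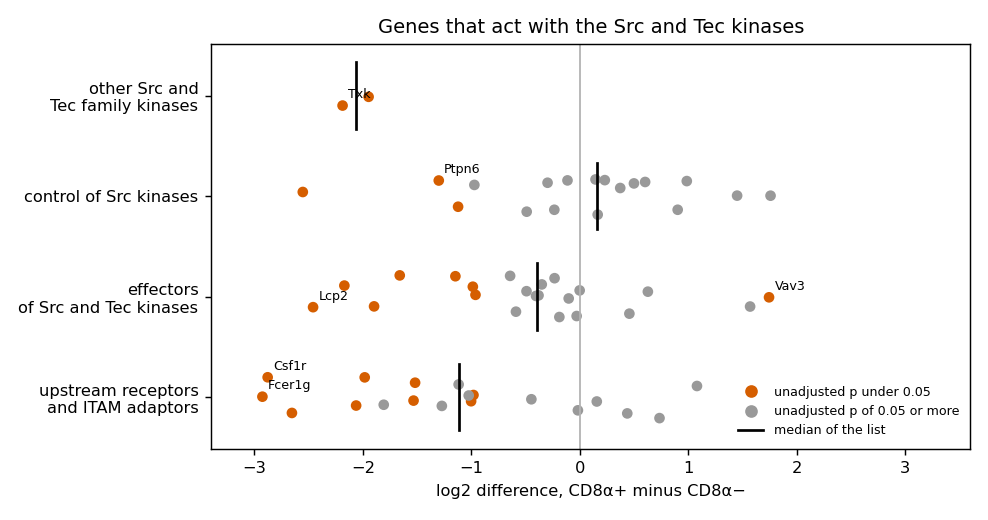
Difference of each tested gene of the 4 pathway lists (horizontal axis, log2, CD8α+ minus CD8α−), 1 point a gene, spread vertically for legibility, with a black bar at the median of each list. Most orange points, called at an unadjusted p under 0.05, lie below 0, with Vav3 alone above it.

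**Figure D5:**
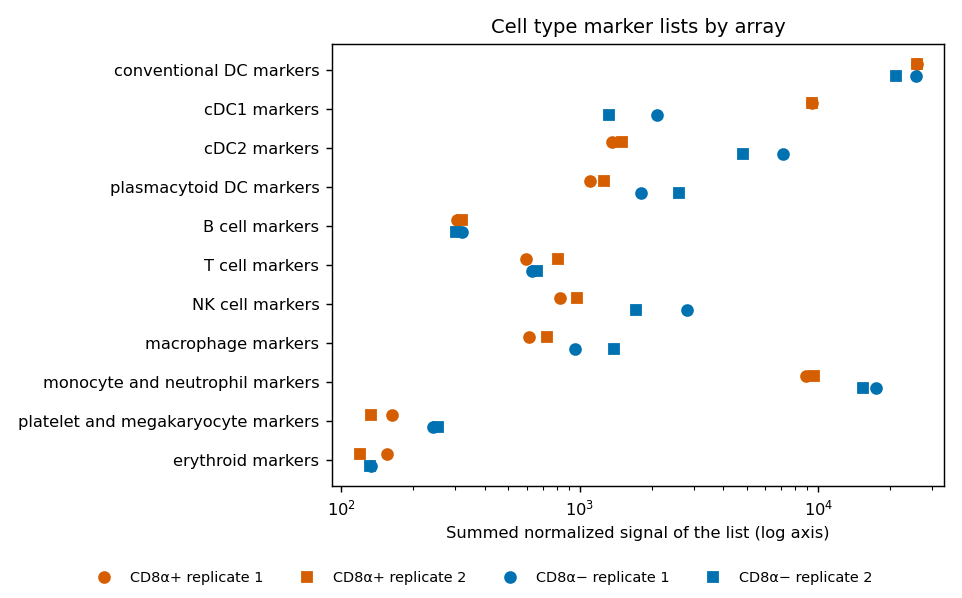
Summed normalized signal of each cell type marker list (horizontal log axis) on each array, CD8α+ DCs above CD8α− DCs. The cDC1 list and, by less, the conventional DC list are higher on both CD8α+ arrays. The cDC2, plasmacytoid DC, NK cell, macrophage, monocyte and neutrophil, and platelet and megakaryocyte lists are lower. The B cell, T cell and erythroid lists overlap.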

How the data were processed

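Biotin-labelled RNA of 4 samples was measured on Affymetrix Mouse Genome 430 2.0 arrays. The authors deposited MAS5 signal intensity on a linear scale, per the submitters' processing notes. The series' design text names Microarray Suite 5.0 and GeneSpring. Sources differ on the RNA preparation, and no detection calls or scaling target are given in the sources used here. The 64 control probe sets were left out. Symbols came from the platform annotation (34945 probe sets with 1 symbol, 932 with several, 9160 with none here).

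Because array medians differed, log2 signals were quantile normalized, raised to a floor of 6.99 (the mean 25th percentile) and tested where the mean signal reached the median, 22.9673. limma 3.58.1 in R 4.3.3 (lmFit, eBayes, 2 residual degrees of freedom) compared CD8α+ with CD8α− DCs, two-sided, with Benjamini-Hochberg adjustment over 22519 probe sets. A permutation of 2 against 2 arrays cannot go below p = 0.333. The small number of arrays limits the precision. "At least" folds set the bright group's mean against the dim group's signal or background, whichever was higher. The fit was tested on simulated data.

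For lists, the brightest tested probe set stands for a gene. Every kinase is named, and of each list the 3 genes with the smallest p per direction, plus uncalled examples. The members and lists were chosen with earlier results of these data known. The alternatives were other scalings, floors, filters, variance models, a replicate block and leaving out each array.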

Additional observations from a re-analysis of the deposited data

How the results depend on the processing

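Over the whole table limma called 0 probe sets after adjustment, with 3500 at an unadjusted p under 0.05, and other settings moved that count. It was 406 with median centring (362 higher, 44 lower in CD8α+ DCs), 37 with a stricter filter, 60 with an intensity trend and 14 with the replicate block, and it ranged from 0 to 2887 with 1 array left out, the highest without CD8α− replicate 1. At the unadjusted threshold the whole table split into 1746 higher and 1754 lower, against 2310 and 454 on the deposited scale, 6018 and 855 with median centring, and 1280 and 3784 on a common trimmed mean. Of the kinase probe sets, 3 were called as reported, 1 on the deposited scale and from 2 to 6 with 1 array left out. Of the list genes, 22 were called as reported, 12 on the deposited scale and from 7 to 38 with 1 array left out. On a common trimmed mean Src stood at -0.060 and Yes1 at -0.59. With 1 array left out, Src ranged from -0.47 to 1.14 and Yes1 from -0.84 to 0.89, lowest without CD8α− replicate 1 and highest without CD8α− replicate 2, where the remaining CD8α− signal was not above background. Btk ranged from -0.34 without CD8α− replicate 2 to 0.48, with -0.13 without CD8α+ replicate 2. Fyn ranged from -0.21 without CD8α− replicate 2 to 1.14, and stood at -0.41 on its other probe set, 1417558_at. The cause of these changes was not tested. Src and Yes1 gave no value under the stricter filter. The titles give both groups the numbers 1 and 2 without saying that a number marks a shared animal or day. The deviations of same-numbered arrays correlated at 0.0311 across 22519 probe sets. With the replicate block 3 kinase probe sets and 20 list genes were called, beside 16.1% of all probe sets, and no kinase gene changed its call. Src and Yes1 signals near background limit what can be said of them.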
